A study of Mus musculus with 4 samples.

Results

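10 genes of GABAergic interneurons were examined: Dlx1, Dlx2, Dlx5, Dlx6, Nkx2-1, Lhx6, Gad1, Gad2, Sst and Npy. They were taken by name as genes of a lineage that Emx1-Cre largely spares, and they are 10 of the 21938 protein-coding genes of the annotation. Hippocampal interneurons that use GABA as transmitter arise in the ganglionic eminences of the subpallium and migrate into the hippocampus before birth. DLX homeodomain factors act in most of their precursors, NKX2-1 and its target LHX6 act in those of the medial ganglionic eminence, and mature cells make GABA with the 2 glutamate decarboxylases GAD1 and GAD2. The excitatory neurons of the hippocampus come instead from the dorsal telencephalon, where Emx1 is expressed.

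ATAC-seq, in which Tn5 transposase inserts adapters into open DNA, was run on nuclei of hippocampi dissected at postnatal day 0 (P0). The cKO libraries (n = 2) carried the genotype Kdm2bEmx1-delta-CxxC, in which Emx1-Cre deletes the exon for the CxxC zinc finger, through which KDM2B binds CpG-rich DNA. The Ctrl libraries (n = 2) were Kdm2bfl/+ or Kdm2bfl/fl, and the labels do not tell which library had which genotype. Titles and protocol name hippocampus as the tissue, although the source given for every sample is neural progenitor cells (NPCs). The libraries of replicates 1 and 2 are called Ctrl1, Ctrl2, cKO1 and cKO2. Since Cre was driven by Emx1, interneurons that entered the tissue should retain the intact floxed allele in both groups, and the tissue was not sorted. In such bulk tissue, fewer interneurons and less accessible chromatin per interneuron cannot be told apart. Nothing in the labels says how many animals went into a library, so p-values measure only the spread between these samples.

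Each library contributed 1 list of peaks, and the lists differed widely in length: 46389 peaks in Ctrl1, 7037 in Ctrl2, 21404 in cKO1 and 44535 in cKO2. Ctrl2 stood apart, with 60.6% of its peaks on repeat-masked sequence against 5.37% to 14.7% in the other lists. Estimated depth ran from 14.6 to 29.6 M fragments (M, mega), highest in Ctrl2. The number of fragments at a summit was recovered from the fold and p-value of the peak, and scaled depth is that number as a fold of the genome-wide mean depth of its library. The weakest peak of a list had a scaled depth of 3.46 in Ctrl2 and of 4.32 to 4.43 in the other 3, so a site below these depths is not listed, which does not show that it was closed. Differences between the groups at promoters are given below with and without Ctrl2, whereas patterns of regions over the libraries are given with all 4.

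The members differed in whether a peak lay near their start sites, and KDM2B reaches DNA through CpG dinucleotides. Sequences within 2 kb of the start sites are therefore shown first. They were read from GRCm38 (mm10), run 5′ to 3′ on the strand of the gene, and carry CpG dinucleotides in capitals. Bases annotated as UTR were left out, which left no stretch for Dlx1. For Dlx2 (chr2:71546212-71546392, minus strand) and Dlx5 (chr6:6881801-6881886, minus strand) the stretch near the summit starts at the ATG of the first coding exon. The stretches of Dlx6 (chr6:6864524-6864724), Gad1 (chr2:70561153-70561353) and Npy (chr6:49822481-49822681), all on the plus strand, are centred on the summit.
Dlx2: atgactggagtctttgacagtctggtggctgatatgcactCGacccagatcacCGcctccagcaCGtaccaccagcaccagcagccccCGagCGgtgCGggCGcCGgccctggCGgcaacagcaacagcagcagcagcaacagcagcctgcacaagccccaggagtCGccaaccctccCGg
Dlx5: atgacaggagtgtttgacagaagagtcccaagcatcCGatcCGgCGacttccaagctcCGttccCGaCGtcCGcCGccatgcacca
Dlx6: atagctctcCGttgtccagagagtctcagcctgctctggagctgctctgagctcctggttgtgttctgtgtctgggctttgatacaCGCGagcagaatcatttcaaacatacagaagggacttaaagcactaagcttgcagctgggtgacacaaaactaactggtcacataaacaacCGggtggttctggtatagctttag
Gad1: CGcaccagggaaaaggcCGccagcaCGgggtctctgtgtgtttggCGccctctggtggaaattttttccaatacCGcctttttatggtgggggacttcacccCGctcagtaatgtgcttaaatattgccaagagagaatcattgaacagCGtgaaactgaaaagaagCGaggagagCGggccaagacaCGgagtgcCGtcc
Npy: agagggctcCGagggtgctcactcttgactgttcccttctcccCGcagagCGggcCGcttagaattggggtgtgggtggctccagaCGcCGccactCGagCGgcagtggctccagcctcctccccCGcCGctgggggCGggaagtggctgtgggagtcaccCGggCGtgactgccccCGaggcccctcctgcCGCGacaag

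The stretch of Npy held 16 CpG in 201 bases and that of Gad1 held 11, and the Dlx6 stretch held 4. Windows of the same length on all promoter peaks of Ctrl1 (11433 windows) had a median of 17 CpG and a median GC content of 64.7%, beside 70.6% for Npy, 53.2% for Gad1 and 48.3% for Dlx6. The Npy stretch was thus close to a usual promoter peak in CpG number, whereas those of Dlx6 and Gad1 were poorer in CpG. The summits lay 1290 bp inside Dlx6 and 789 bp before the nearest Gad1 start site. Around a start site itself both genes are CpG-rich, as defined next. The shorter stretches of Dlx2 and Dlx5 held 11 CpG in 181 bases and 8 in 86. Gad2, Lhx6 and Nkx2-1 had no promoter peak in any list although their promoters are CpG-rich, here meaning a GC content of at least 50% and a ratio of observed to expected CpG of at least 0.6 in the 1001 bp around a transcription start site (TSS). The 200 bases before the TSS are shown for Gad2 (chr2:22622005-22622204, plus strand), Lhx6 (chr2:36104892-36105091, minus strand) and Nkx2-1 (chr12:56535107-56535306, minus strand), with the start site of the highest CpG ratio where a gene has several.
Gad2: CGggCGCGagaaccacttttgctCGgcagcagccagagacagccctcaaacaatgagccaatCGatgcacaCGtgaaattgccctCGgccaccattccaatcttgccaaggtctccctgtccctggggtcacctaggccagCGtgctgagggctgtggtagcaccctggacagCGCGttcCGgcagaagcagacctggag
Lhx6: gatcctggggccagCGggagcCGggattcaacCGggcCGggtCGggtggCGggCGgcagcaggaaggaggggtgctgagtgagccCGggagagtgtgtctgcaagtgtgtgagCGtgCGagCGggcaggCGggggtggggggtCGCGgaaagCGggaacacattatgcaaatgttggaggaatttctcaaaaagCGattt
Nkx2-1: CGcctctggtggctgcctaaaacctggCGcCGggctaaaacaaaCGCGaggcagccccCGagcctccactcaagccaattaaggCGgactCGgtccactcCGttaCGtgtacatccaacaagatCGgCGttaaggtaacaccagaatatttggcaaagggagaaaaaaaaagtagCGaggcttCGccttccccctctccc
These 3 stretches held 11, 16 and 14 CpG, counts that lay between the 4 of Dlx6 and the 16 of Npy. The 3 lie directly before a start site and the Dlx6 and Gad1 stretches do not, so those counts come from unlike positions.

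4 short motifs were searched on both strands of these 8 stretches: TAATTA, the core bound by many homeodomain proteins, the E-boxes CAGCTG and CAGATG of basic helix-loop-helix factors, and CAAGTG, the core of NKX2 sites. TAATTA occurred in none of the 8 and is in 1.14% of the 11433 promoter-peak windows. CAGCTG occurred once, in the Dlx6 stretch (11.0% of the windows), CAAGTG once, in the Lhx6 stretch (6.13%), and CAGATG in none (6.80%). A match is a description of these letters and not evidence of binding, and a missing match says only that the letters are not in the stretch.

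A peak counted as a promoter peak when its summit lay within 2 kb of an annotated TSS. 6 of the 10 genes had a promoter peak in Ctrl1, 0 in Ctrl2, 1 in cKO1 and 2 in cKO2. Over all protein-coding genes the share was 58% in Ctrl1, 8.27% in Ctrl2, 40.3% in cKO1 and 55.9% in cKO2. The count of the members was therefore near that background in Ctrl1 and below it in cKO1 and cKO2, while in Ctrl2 a count of 0 of 10 is near a background this low. Gad1 was listed in 3 libraries and Dlx2 in 2, and Dlx1, Dlx5, Dlx6 and Npy were listed in Ctrl1 only. Gad2, Lhx6, Nkx2-1 and Sst, 40% of the members, were listed in none, as were 39.8% of all protein-coding genes.

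Most of the peaks that were found were weak ones of their lists. Those of Dlx1 and Gad1 in Ctrl1 lay near the middle, at 47.9% and 50.9% of the way down. To compare libraries, each gene received a promoter percentile, the percentage of protein-coding genes that it exceeded in the −log10 p of its best promoter peak within that library, or 0 without a peak. Among genes with a peak, percentiles started at 42.0 in Ctrl1, 91.7 in Ctrl2, 59.7 in cKO1 and 44.1 in cKO2. The 9 promoter peaks of the 6 genes rested on 9 to 22 fragments at the summit, at a scaled depth of 5.55 to 13.6, and 8 of the 9 fell in the weaker 50% of their list. The median percentile over the 10 genes was 42.4 in Ctrl1 and 0 in the other 3 libraries. Over all protein-coding genes it was 49.9 in Ctrl1, 0 in Ctrl2, 0 in cKO1 and 49.99 in cKO2.

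**Figure D1:**
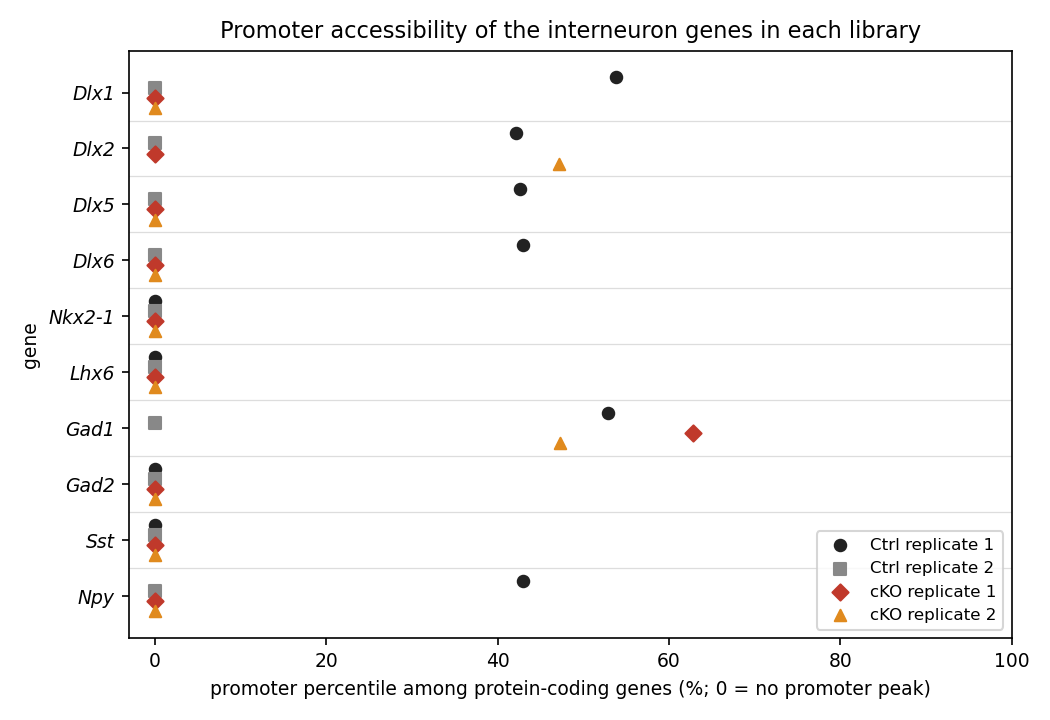
Promoter percentile (%, horizontal axis) of each interneuron gene (rows) in the 4 libraries, 1 symbol per library, with 0 for a gene without a promoter peak. Symbols away from 0 lie between 42.2 and 62.8, and Ctrl2 is at 0 in every row.

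Dlx2 and Dlx1, neighbours on chromosome 2 that are transcribed towards each other, were both listed in Ctrl1, and Dlx2 also in cKO2. Dlx1 (ENSMUSG00000041911.3, chr2:71528113-71533981, plus strand), a homeodomain factor of interneuron precursors and of some mature interneurons, had a percentile of 53.8 in Ctrl1 and 0 in Ctrl2, cKO1 and cKO2. Its summit lay 1613 bp inside the gene, in sequence annotated as UTR that the antisense gene Dlx1as also covers, and rested on 20 fragments. This was the promoter summit farthest from its TSS among the members, and the nearest one beyond the 2 kb limit was 3.03 kb upstream of Dlx5.

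Dlx2 (ENSMUSG00000023391.8, chr2:71543408-71546754, minus strand), which acts together with Dlx1 in the same precursors, had a percentile of 42.2 in Ctrl1, 0 in Ctrl2, 0 in cKO1 and 47.1 in cKO2. The summits lay in the first coding exon, 635 bp and 442 bp inside the gene, on 10 and 12 fragments. Its groups overlapped, since each held 1 library with a peak and 1 without. The Ctrl peak was among the weakest listed, with 0.314% of the genes that had a promoter peak in that library below it.

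Dlx5 and Dlx6 form a second pair of homeodomain genes, on chromosome 6, and take part in interneuron maturation and migration. Dlx5 (ENSMUSG00000029755.10, chr6:6877805-6882085, minus strand) had a percentile of 42.6 in Ctrl1 and 0 in the other 3 libraries, from a summit 167 bp inside the gene on 10 fragments. Dlx6 (ENSMUSG00000029754.13, chr6:6863334-6868568, plus strand) had a percentile of 42.9 in Ctrl1 and 0 in the other 3, from a summit 1290 bp inside the gene on 11 fragments. The Dlx6 summit was closer to the start of an antisense gene, Dlx6os2, at 526 bp, and ATAC-seq reads carry no strand that could assign it to either gene. The pair was thus listed in 1 library of 4, near the lowest percentile that library allows.

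Nkx2-1 (ENSMUSG00000001496.15, chr12:56531958-56536908, minus strand), which specifies the medial ganglionic eminence, had a percentile of 0 in all 4 libraries. Lhx6 (ENSMUSG00000026890.19, chr2:36081953-36105408, minus strand), a LIM homeodomain factor that migrating interneurons keep, was also at 0 in all 4. Neither gene was listed at any of its annotated start sites, 2 for Nkx2-1 and 4 for Lhx6.

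Gad1 (ENSMUSG00000070880.10, chr2:70553072-70602014, plus strand), the decarboxylase that makes most of the GABA of a neuron, was the member listed most often. Its percentile was 52.8 in Ctrl1, 0 in Ctrl2, 62.8 in cKO1 and 47.3 in cKO2. The 3 summits lay 789, 871 and 762 bp upstream of the nearest TSS, in sequence annotated as intron of Gad1, and rested on 22, 12 and 14 fragments. Their scaled depths were 13.6 in Ctrl1, 5.78 in cKO1 and 7.75 in cKO2, so the higher percentile of cKO1 came with the lowest of the 3 depths. The mean percentile was 55.1 ± 11.0 in cKO (SD, n = 2) and 26.4 ± 37.4 in Ctrl (SD, n = 2), a difference of 28.7 points that was smaller than the spread within Ctrl (p = 0.667 by the exact permutation test, two-sided). It was 2.24 points without Ctrl2, 55.1 without Ctrl1 and 5.89 with mid-ranks in place of 0 for genes without a peak, and −26.4 points when only peaks with a −log10 q of at least 5 were kept.

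Gad2 (ENSMUSG00000026787.3, chr2:22622205-22693874, plus strand), the second decarboxylase, which supplies GABA at synapses, was at 0 in all 4 libraries. Of the neuropeptides, Sst (ENSMUSG00000004366.4, chr16:23889573-23890958, minus strand), made by somatostatin interneurons of the medial ganglionic eminence, was at 0 in all 4. Npy (ENSMUSG00000029819.6, chr6:49822710-49829507, plus strand), the neuropeptide Y of several interneuron types, had a percentile of 42.9 in Ctrl1 and 0 in the other 3. Its summit lay 129 bp upstream of the TSS on 9 fragments, the lowest number among the members' promoter peaks.

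Within Ctrl1 the order of the percentiles was Dlx1 (53.8), Gad1 (52.8), Npy (42.93), Dlx6 (42.90), Dlx5 (42.6) and Dlx2 (42.2). Dlx1 and Gad1 rested on 20 and 22 fragments and the other 4 on 9 to 11, so the order within each of these sets was not resolved at this depth.

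The comparison of cKO with Ctrl asked whether promoters of this lineage differed between the groups. None of the 10 genes had a percentile higher in both cKO libraries than in both Ctrl libraries, a count near the background of 12.3% of all protein-coding genes, of which 39.8% had no peak and could not have been higher. 9 of the 10 were at 0 in cKO1 and could not have been higher, which left Gad1. A gene at 0 in Ctrl2 cannot be lower in both cKO libraries than in both Ctrl libraries, so on this scale the opposite direction could not be assessed for any of the 10. The 1.69% of all protein-coding genes that were lower all had a promoter peak in Ctrl2, and that share is no background for the members. With 6 ways to assign the 4 libraries to groups, the exact permutation test (two-sided) cannot give a p below 0.333, which 3073 of the 21938 genes reached, and after Benjamini-Hochberg adjustment over all genes no p was below 1. Gad1 had p = 0.667 by the exact permutation test, and the other 9 members had p = 1. The differences, cKO minus Ctrl, were −26.9 points for Dlx1, −21.5 for Npy, −21.4 for Dlx6 and −21.3 for Dlx5, each from the peak of Ctrl1 alone. Without Ctrl2 they were −53.8 for Dlx1, −42.9 for Npy, −42.9 for Dlx6 and −42.6 for Dlx5, and without Ctrl1 all 4 were 0. They were also 0 for Dlx1 and Dlx6 with promoters of 1 kb, and for Npy, Dlx6 and Dlx5 with a −log10 q of at least 5. With mid-ranks, the middle of the ranks of all genes without a peak, the differences were −23.8 for Dlx1, −18.5 for Npy, −18.4 for Dlx6 and −18.3 for Dlx5, each lower in both cKO libraries at the smallest p the exact permutation test allows (0.333). Mid-ranks are higher in shorter lists, and Gad2, Lhx6, Nkx2-1 and Sst, without a promoter peak in any library, differed by −7.46 on that scale. Dlx2 differed by 2.47 points with all libraries and by −18.6 without Ctrl2. The order of the members by size of difference thus depended on Ctrl2, since Gad1 had the largest with it and the smallest of the 6 listed genes without it. The count of members with a promoter peak was 3 on average in Ctrl (6 and 0) and 1.5 in cKO (1 and 2), and the cKO counts lay between the 2 Ctrl counts. Without Ctrl1 this difference, cKO minus Ctrl, turned from −1.5 to 1.5 genes, and without Ctrl2 it was −4.5. When each list was cut to its 7037 strongest peaks, the number in the shortest list, no member had a promoter peak in any library.

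CpG-rich promoters were listed more often than others, for 91.2% against 25.9% of genes in Ctrl1, so the members were set beside genes of the same class. 8 of the 10 members were CpG-rich, the exceptions being Dlx1 and Sst. Of these 8, 5 had a promoter peak in Ctrl1, 0 in Ctrl2, 1 in cKO1 and 2 in cKO2. Of the 10794 CpG-rich protein-coding genes, 91.2% were listed in Ctrl1, 15.1% in Ctrl2, 68.6% in cKO1 and 88.9% in cKO2. 3 of the 8 CpG-rich members were listed in no library, beside 7.16% of CpG-rich genes. These 8 were thus listed at a smaller share than CpG-rich genes at large in Ctrl1, cKO1 and cKO2, with too few listed genes in Ctrl2 to compare, a description with no test because they were chosen by name with results of these data known.

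28 further genes of the GABAergic lineage were listed at shares between those of the members and those of excitatory lineage genes in Ctrl1, cKO1 and cKO2. 19 of the 28 had a promoter peak in Ctrl1, 0 in Ctrl2, 9 in cKO1 and 13 in cKO2, and their median percentile was 43.7 in Ctrl1 and 0 in the others. None was listed in all 4 libraries, and 9 (32.1%, beside 39.8% of all protein-coding genes) were listed in none, among them Slc32a1, the vesicular transporter of GABA, the progenitor factors Gsx1 and Gsx2, the chemokine receptor gene Ackr3 and Npas1. Of the 17 that were CpG-rich, 11 were listed in Ctrl1, 0 in Ctrl2, 5 in cKO1 and 7 in cKO2, and 6 in none, beside 5, 0, 1 and 2 of the 8 CpG-rich members and 3 in none. With a smallest p of 0.333, the exact permutation test could pass no gene of the list. With all 28 at 0 in Ctrl2, only Ctrl1 could be set against the cKO libraries.

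The 18 genes of the excitatory lineage, in which Emx1-Cre acts, had a promoter peak at a larger share than the members in the same 3 libraries. The counts were 16 in Ctrl1, 0 in Ctrl2, 11 in cKO1 and 16 in cKO2, with median percentiles of 62.6, 0, 69.8 and 66.0. Of the 13 that were CpG-rich, 12, 0, 8 and 11 were listed in these libraries. CpG-rich genes at large were listed for 91.2%, 15.1%, 68.6% and 88.9%, so these 13 were near that background in Ctrl1, cKO1 and cKO2. The other 5 were listed for 4, 0, 3 and 5, beside 25.9%, 1.68%, 12.8% and 23.8% of genes not CpG-rich. All 18 were likewise at 0 in Ctrl2, and the exact permutation test could pass none of them, its smallest p being 0.333. Genes listed in both cKO libraries and not in Ctrl2 were set against Ctrl1, a description with no test. Higher in both cKO libraries than in Ctrl1 were 0 of 1 of the members (Gad1), 5 of 9 of the GABAergic list and 6 of 11 of the excitatory list. The same held for 1 of 2 striatal genes and 36.3% of 7001 protein-coding genes. Percentiles of listed genes start higher in cKO1 (59.7) than in Ctrl1 (42.0), so a weak gene can be higher there through the length of the list. Bcl11b was the gene listed in none. Genes chosen as striatal were listed for 8, 0, 2 and 7 of 10 in the same order of libraries, with Drd2 and Ppp1r1b in none. The shares over all protein-coding genes were 58%, 8.27%, 40.3% and 55.9%. Of the 5 striatal genes that were CpG-rich, 4, 0, 1 and 4 were listed, and of the other 5, 4, 0, 1 and 3. For oligodendrocyte lineage genes the counts were 2, 0, 0 and 1 of 5, with Olig2, Sox10 and Cspg4 in none. All 7 microglia and vessel markers (Aif1, Csf1r, Cx3cr1, P2ry12 and Cldn5 among them) and all 6 genes of other tissues (Alb, Ins2, Myh6, Krt5 and Myod1 among them) had no promoter peak in any library. Of these, 0 of the 7 and 1 of the 6 were CpG-rich. Among the 11144 protein-coding genes that were not CpG-rich, 7969 were likewise listed in no library. No gene of any of these lists had a promoter peak in Ctrl2.

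**Figure D2:**
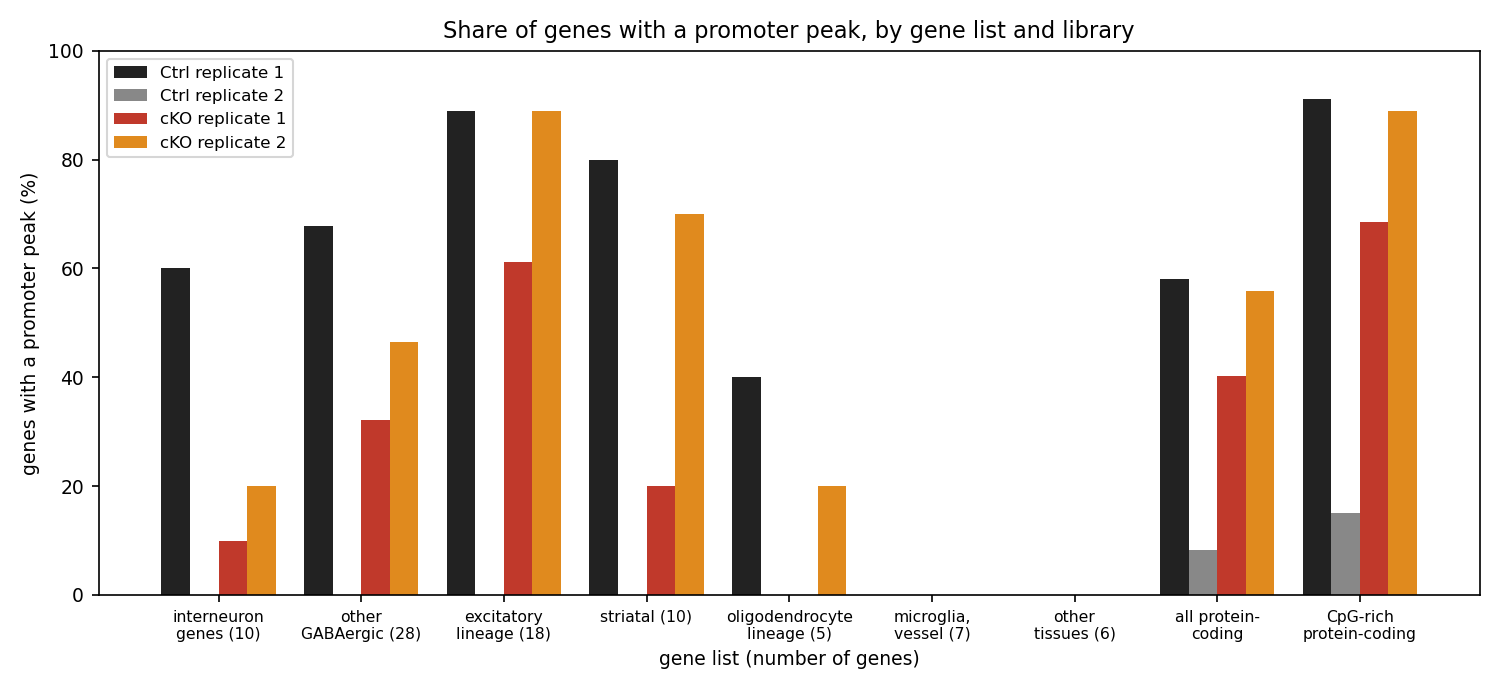
Genes with a promoter peak (%, vertical axis) in each gene list, with 1 bar per library and the number of genes in parentheses. Bars of the interneuron genes are at 60, 0, 10 and 20% for Ctrl replicates 1 and 2 and cKO replicates 1 and 2, and those of the excitatory lineage genes at 88.9, 0, 61.1 and 88.9%.

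Genes with the most similar profile were sought among the other protein-coding genes by the sum of absolute differences in percentile from the median profile of the members over the 4 libraries. 49 genes were tied at the smallest distance, 0.116 points, each with a percentile of 42.3 in Ctrl1 and 0 elsewhere, and the first 3 in alphabetical order were Ap1b1, Arhgef5 and BC017158.

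Peaks away from the promoters were examined in the gene body and 50 kb on either side. The windows of Dlx1 and Dlx2 overlap, as do those of Dlx5 and Dlx6, so the 10 genes form 8 loci with a total of 0.995 Mb and the genes of a pair share their peaks. All 10 genes had a peak in their window in Ctrl1, 1 had one in Ctrl2, 3 in cKO1 and 6 in cKO2. Over all protein-coding genes the share was 87.1% in Ctrl1, 38.2% in Ctrl2, 77.2% in cKO1 and 86.7% in cKO2. The members were below the background in every library but Ctrl1. The median number of peaks per window was 3 in Ctrl1, 0 in Ctrl2, 0 in cKO1 and 1.5 in cKO2, where the medians over protein-coding genes were 3, 0, 2 and 3.

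The 8 loci held 23 peaks in Ctrl1, 2 in Ctrl2, 6 in cKO1 and 16 in cKO2. That made 23.1, 2.01, 6.03 and 16.1 peaks per Mb, beside 17.0, 2.58, 7.85 and 16.3 per Mb over the genome. Ctrl1 alone had more peaks per Mb in the loci than in the genome. Without the 2 regions upstream of Gad2 that aligned to the mitochondrial genome, described below, the loci had 21.1, 0, 4.02 and 14.1 peaks per Mb, so that the value of Ctrl2 rested on them entirely. Merging overlapping peaks gave 25 regions, 12 of them within 2 kb of a TSS of any annotated gene. 9 regions were held by Ctrl1 only, 8 by Ctrl1 and cKO2, 4 by these and cKO1, 2 by all 4 libraries and 2 by cKO2 only. No region was held by both cKO libraries and missing from both Ctrl libraries, a pattern of only 0.692% of the 58652 regions that the same merging gave over the genome, so 0 of 25 is at the background. Over the genome 18.8% of regions were held by Ctrl1 only, 27.1% by Ctrl1 and cKO2, 25.9% by these and cKO1, 5.56% by all 4 libraries and 14.1% by cKO2 only. The reverse could arise only at the 2 regions that Ctrl2 held, and these were in all 4 lists.

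**Figure D3:**
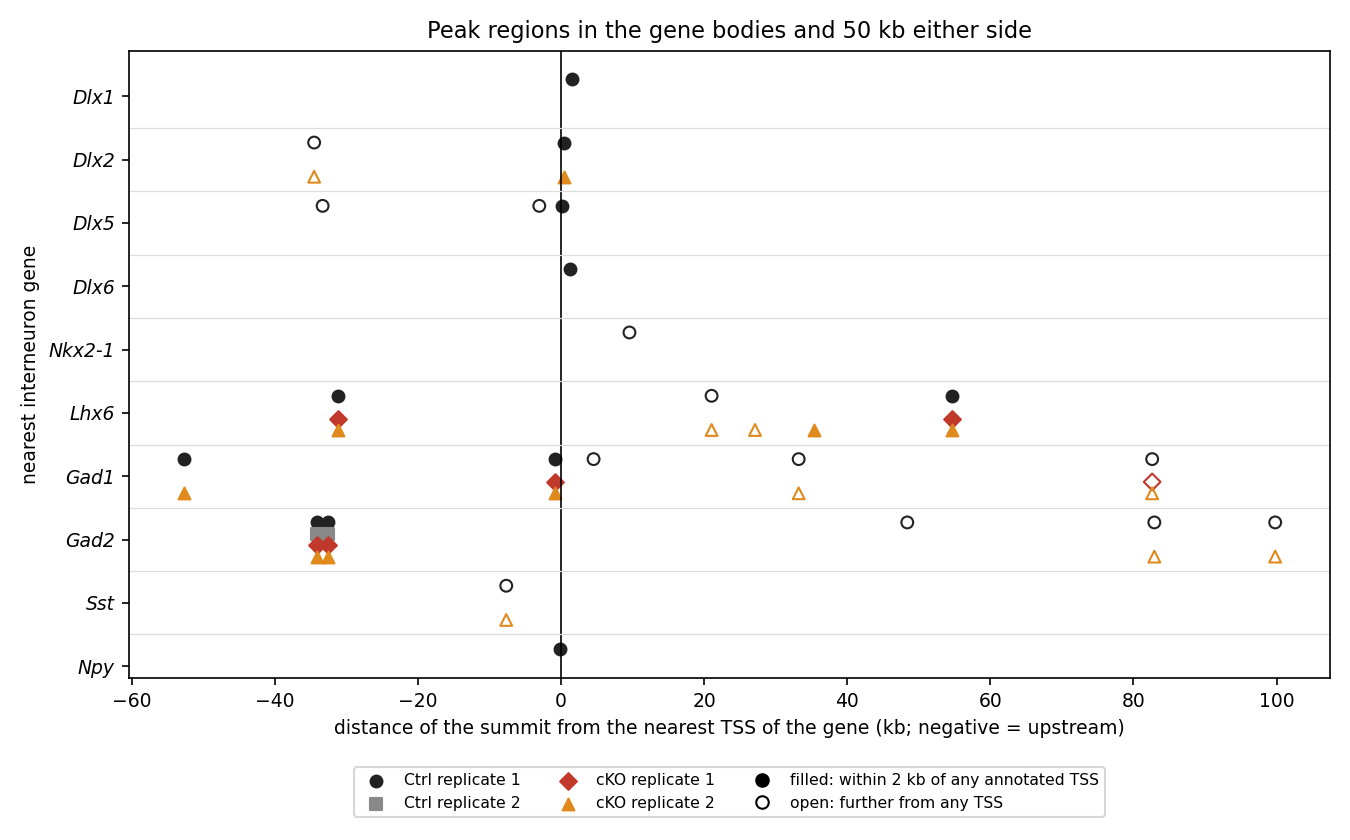
Position of every peak region by its nearest interneuron gene (rows), as the distance in kb of the summit from the TSS of that gene (horizontal axis, upstream negative), with 1 symbol per library that held the region. Filled symbols lie within 2 kb of a TSS of any gene and open symbols do not. Regions of Ctrl2 appear only in the row of Gad2, 34.2 and 32.5 kb upstream.

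The 2 regions held by all 4 libraries lay 34.2 and 32.5 kb upstream of Gad2 (chr2:22587582-22588288 and chr2:22588827-22590185), in an intron of Myo3a at the starts of the annotated genes Gm13341 and Gm13340. They ranked at 14 and 16 in the list of Ctrl1, at 24 and 27 in Ctrl2, at 13 and 16 in cKO1 and at 10 and 13 in cKO2. The first had a scaled depth of 1364 in Ctrl1, 350 in Ctrl2, 909 in cKO1 and 1171 in cKO2. The first region aligned to the mitochondrial genome over 707 bp at 98.9% identity and the second over 1360 bp at 98.2%, and no other region of the loci aligned. Whether fragments of mitochondrial DNA made up these peaks was not tested. Without both regions no member had a peak in its window in Ctrl2 and 2 had one in cKO1, while 10 and 6 had one in Ctrl1 and cKO2.

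**Figure D4:**
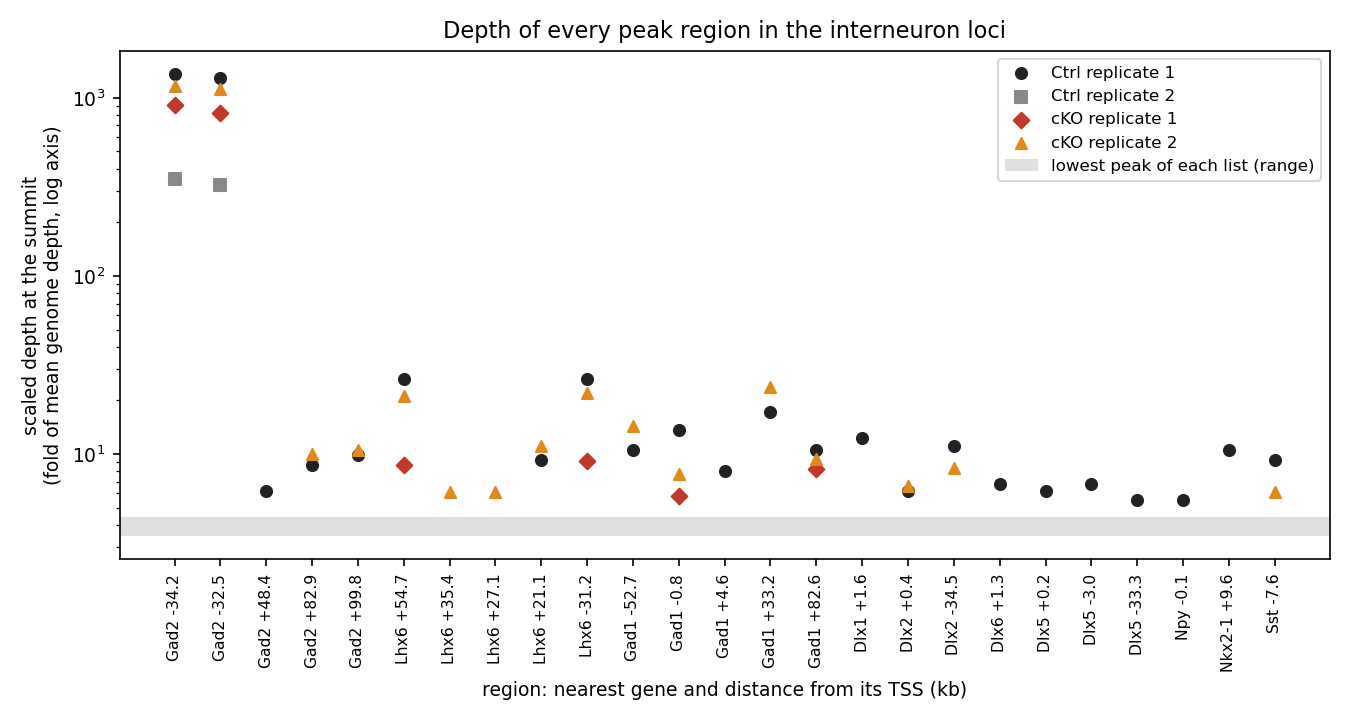
Scaled depth at the summit (fold of the mean genome depth, log axis) of the 25 regions, named by the nearest gene and the distance in kb from its TSS, with 1 symbol per library and the range of the weakest peak of each list in grey. The pair upstream of Gad2 lies at 326 to 1364 and every other region at 5.55 to 26.5.

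Gad1 had the strongest of the other regions that lay away from annotated promoters. Among regions held by at least 3 libraries, 1 was away from promoters, an intergenic region 82.6 kb downstream of the nearest Gad1 TSS (chr2:70645342-70645867). Its scaled depth was 10.5 in Ctrl1, 8.20 in cKO1 and 9.41 in cKO2, and it was not listed in Ctrl2. A deeper region, chosen after its values were seen, lay in an intron of Gad1, 33.2 kb downstream of the nearest TSS (chr2:70595886-70596315). Its scaled depth was 17.3 in Ctrl1 and 23.8 in cKO2, at 22.1% and 13.9% of the way down the lists, and it was absent from the lists of Ctrl2 and cKO1. The 201 bases around its summit (chr2:70596018-70596218, plus strand) are shown because no promoter peak of a member stood as high in its list.
Gad1 intron: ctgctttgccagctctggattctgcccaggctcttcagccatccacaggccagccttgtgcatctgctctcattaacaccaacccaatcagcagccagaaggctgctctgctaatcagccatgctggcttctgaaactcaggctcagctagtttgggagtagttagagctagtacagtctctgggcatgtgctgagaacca
This stretch had a GC content of 53.2%, equal to that at the Gad1 promoter summit, but held 0 CpG where the promoter stretch held 11. It contained the E-box CAGATG once, read on the minus strand, and none of the other 3 motifs.

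A further Gad1 region in an intron, 4.56 kb downstream of a TSS, was listed in Ctrl1 only, and one 52.7 kb upstream lay in a coding exon of Erich2 and was listed in Ctrl1 and cKO2. Gad2 had 1 region inside the gene, 48.4 kb downstream of its TSS and on 10 fragments in Ctrl1 only, and 2 regions downstream of the gene, at 82.9 and 99.8 kb, in Ctrl1 and cKO2. At 9.86 and 10.5 the scaled depths of the outer one were close in these 2 libraries.

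In the Lhx6 locus the regions shared by 3 libraries belonged to start sites of neighbours. One lay 37 bp from a TSS of Ndufa8, which encodes a subunit of respiratory complex I, with scaled depths of 26.5 in Ctrl1, 8.68 in cKO1 and 21.03 in cKO2. The other lay 16 bp from a TSS of Rbm18, at 26.5, 9.16 and 22.1 in the same libraries. Lhx6 itself held 1 region, 21.1 kb downstream of a TSS in sequence annotated as UTR, at a scaled depth of 9.25 in Ctrl1 and 11.1 in cKO2. 2 more regions, both within Morn5, were listed in cKO2 only, on 11 fragments each.

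The other loci were sparse, and with them all 25 regions are accounted for. The only region at Sst lay 7.65 kb upstream of its TSS (chr16:23898105-23899066), at a scaled depth of 9.25 in Ctrl1 and 6.09 in cKO2. At Nkx2-1 the only region lay 9.57 kb downstream of a TSS, in an intron of the pseudogene Sfta3-ps, at 10.5 in Ctrl1 only. Npy had no region besides its promoter peak. A region 34.5 kb upstream of Dlx2 had a scaled depth of 11.1 in Ctrl1 and 8.30 in cKO2, and regions 3.03 and 33.3 kb upstream of Dlx5 were listed in Ctrl1 only, at 6.78 and 5.55.

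The DNA between the genes of each Dlx pair is known for enhancers that are active in forebrain interneurons. The interval between Dlx1 and Dlx2 (chr2:71533982-71543407, 9426 bp) contained 0 peaks in all 4 libraries. The interval between Dlx6 and Dlx5 (chr6:6868569-6877804, 9236 bp) likewise contained 0 in all 4. Accessibility below the weakest scaled depth of a list, 3.46 to 4.43, would not have been detectable there. A site above these depths could also go unlisted, because peaks were called against local background. At the 2.58 to 17.0 peaks per Mb of the genome, most intervals this short would hold 0 peaks, so these counts do not set the intervals apart.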

How the data were processed

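ATAC-seq was measured in 2 cKO and 2 Ctrl hippocampal libraries at P0, grouped by their titles. According to the methods of the study, the authors used Cutadapt for trimming and Bowtie2 for alignment to mm10, discarded mitochondrial reads, PCR duplicates (Picard) and regions of the ENCODE blacklist, and corrected for the Tn5 offset. They called peaks per library with MACS2 2.2.7.1 and no control. Whether the short trimmed reads placed less well in repeats was not tested. Each deposited list gives a fold enrichment at the summit as a ratio to local background, −log10 p-values and −log10 q-values of a Poisson test and a display score, which was not used. Positions, starts and summit offsets in the deposited lists were converted to 1-based mm10 coordinates. Since lists called separately share no scale, folds and p-values were compared only within a list.

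Genes and TSSs came from the basic set of GENCODE M21, with 21938 protein-coding genes, and sequence from GRCm38. Peaks were ranked by −log10 p within each list. Whole fragments at a summit were recovered from fold and p-value, within 0.01 of the −log10 p for at least 99.986% of peaks in each list. Depth in fragments was estimated from the lowest background and the shortest peak and was not checked against reads. Arithmetic used python 3.11.15, numpy 2.4.6 and scipy 1.17.1, and blastn 2.17.0 compared the regions with the mitochondrial genome (identity of 80% or more). Scripts were tested on simulated data. Groups were compared by the difference of means with an exact permutation test, adjusted by Benjamini-Hochberg over all genes.

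The members and the gene lists were chosen with earlier results of these data known. All 10 members were named, and of each other list at most 5 genes with a promoter peak in all or in no library, in list order, together with the 3 most similar genes and regions held by at least 3 libraries away from promoters. Alternatives were lists cut to the 7037 strongest peaks (equal-size lists), a −log10 q of at least 5, promoters of 1 kb, any overlap, mid-ranks for genes without a peak, no repeat-masked peaks (at least 50% of bases), windows of 20 kb, each library left out, a replicate block, and, added after seeing the data, no regions aligned to the mitochondrial genome. A q of 5 on the −log10 scale is stricter than the deposited lists, whose lowest value was 1.31.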

Additional observations from a re-analysis of the deposited data

How the results depend on the processing

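Differences are cKO minus Ctrl. The members with a promoter peak differed by −1.5 genes, which became 0 in equal-size lists, where no member kept a promoter peak in any library, and −0.5 with promoters of 1 kb. Leaving out 1 library at a time gave −4.5 to 1.5 genes. The median percentile over the members, −21.2 points, became 0 in equal-size lists, with −log10 q of at least 5 and with promoters of 1 kb, and ran from −42.4 to 0 without 1 library. The peaks in the loci, −1.5, became 0.5 in equal-size lists, −0.5 with the stricter q and −2.5 with windows of 20 kb, and ran from −12 to 9 without 1 library. For Gad1 the difference in percentile reversed to −26.4 with the stricter q, and for Dlx2 to −5.52 with mid-ranks. Without 1 library the Dlx2 difference ran from −21.1 to 26.0, negative when Ctrl2 or cKO2 was left out. The cause was not tested, except that equal-size lists and the stricter q hold fewer peaks. Any overlap and the removal of repeat-masked peaks changed no direction for any of the 10 members. The labels share replicate numbers but do not say that they pair samples. The differences between replicates 1 and 2 correlated at r = 0.053 across 13196 genes, which are not independent replicates. With the replicate block, Gad1 had an exact permutation p of 0.5, the smallest that block allows, no gene was called, as without it, and every member kept its difference. With 2 libraries a group and 9 to 22 fragments behind a promoter peak, a loss of a peak in 1 list cannot be told from a depth just under its threshold.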
